A study of Mus musculus with 6 samples.

Results

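The genes that write and erase methyl groups on histones were examined in CD8+ T cells treated with an inhibitor of the histone demethylase LSD1. They were taken from the table of 16281 genes by symbol. The rule took every symbol that begins with 1 of 11 prefixes (Kdm, Kmt2, Kmt5, Setd, Prdm, Ezh, Nsd, Suv39h, Ehmt, Smyd or Prmt) and 8 further names (Dot1l, Ash1l, Eed, Suz12, Jarid2, Uty, Jmjd6 and Carm1), and it left out 3 names (Kdm1a, Kdm1b and Prdm1). It found 74 genes, of which 73 belong to families of histone methylation enzymes or their core subunits. The other gene is Nsdhl, an enzyme of cholesterol synthesis whose symbol happens to begin with a listed prefix.

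Histone methyltransferases of the SET domain families and Dot1l place methyl groups on lysines, and the PRMT enzymes place them on arginines. Methyl groups on H3K4 (lysine 4 of histone H3), H3K36 and H3K79 mark transcribed genes, while those on H3K9 and H3K27 mark silent ones. Demethylases of the JmjC class, which need iron and alpha-ketoglutarate, take them off again. LSD1, encoded by Kdm1a, works by another chemistry that uses FAD and removes methyl groups from H3K4. In CD8+ T cells, the H3K27 methyltransferase complex PRC2 and the H3K9 methyltransferase Suv39h1 are known to silence memory and progenitor genes as effector cells form.

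RNA was measured in 6 cultures of mouse CD8+ T cells, 3 with the LSD1 inhibitor GSK2879552 (GSK, 0.5 μM) and 3 with its vehicle (Veh). All came from the Spleen of C57BL/6 mice of the genotype Tg(TcraTcrb)1100Mjb (OT1), whose T cells carry 1 transgenic receptor for an ovalbumin peptide, so both groups share that transgene. The cells were activated for 48 h with anti-CD3 and anti-CD28 in the presence of IL-2, then grown in IL-2 for 3 days, and the inhibitor or vehicle was there throughout. The age and sex of the mice were not given in the sources used here, nor was whether 1 mouse gave both a GSK and a Veh culture. The cultures of a group came from separate mice, so the p-values measure the spread between cultures of different mice.

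Total counts lay between 18288447 and 18918811 in Veh and between 19149909 and 19846720 in GSK. Levels are given as CPM (normalised read counts, with totals scaled by TMM), and differences as log2 fold changes of GSK over Veh with their standard errors. The adjusted p is that of edgeR's quasi-likelihood test, corrected by the Benjamini-Hochberg method over 11698 genes, and a gene was called when it was under 0.05. A second rule also asked for a fold change over 1.5. The smallest p that an exact permutation test of a single value allows for groups of 3 is 0.1. The markers Cd3d, Cd3e, Cd3g, Cd8a and Cd8b1 summed to between 1937 and 2036 CPM in Veh and between 1752 and 1869 CPM in GSK, whereas markers of CD4 T cells, B cells, myeloid, NK and erythroid cells each summed to at most 7.94 CPM in any sample. Of the CD8 T-cell markers, Cd3d, Cd3e and Cd3g were called lower, and their part in the results was not tested. GSK replicates 2 and 3 differed more than any other replicate pair, with a chi-square of 9.02 per degree of freedom against 3.95 to 4.66.

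Kdm1a itself, the target of the drug, stood at 92.8 ± 5.45 CPM in Veh against 87.1 ± 3.54 CPM in GSK (SD, n = 3), and the ranges of the groups overlapped. Its log2 fold change was -0.09 ± 0.055, with an edgeR adjusted p of 0.22. The drug acts on the protein, so this level does not check the labels.

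Of the 74 genes, 69 were tested. In GSK, 15 of them were higher and 22 lower, so 53.6% were called, compared with 32.1% of all tested genes (16.6% higher and 15.5% lower). The members were also measured at a higher level than most genes, with a median of 71.5 CPM against 33.2 CPM. Among genes at 50 CPM or more, where small differences pass the test more easily, 60.0% of 45 members and 42.6% of 4569 genes were called. The differences were small. Under the second rule no member was higher and 2 were lower (Kdm5b and Smyd1), with the same counts in DESeq2, while 6.32% of all tested genes passed (2.22% higher and 4.09% lower). The GSK and Veh samples did not overlap in 41 of 69 members, compared with 46.7% of all tested genes without overlap. The median log2 fold change was -0.07 over the members and -0.00 over all tested genes. In bulk RNA, a lower level in each cell and a smaller share of the cells that express a gene cannot be told apart.

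**Figure D1:**
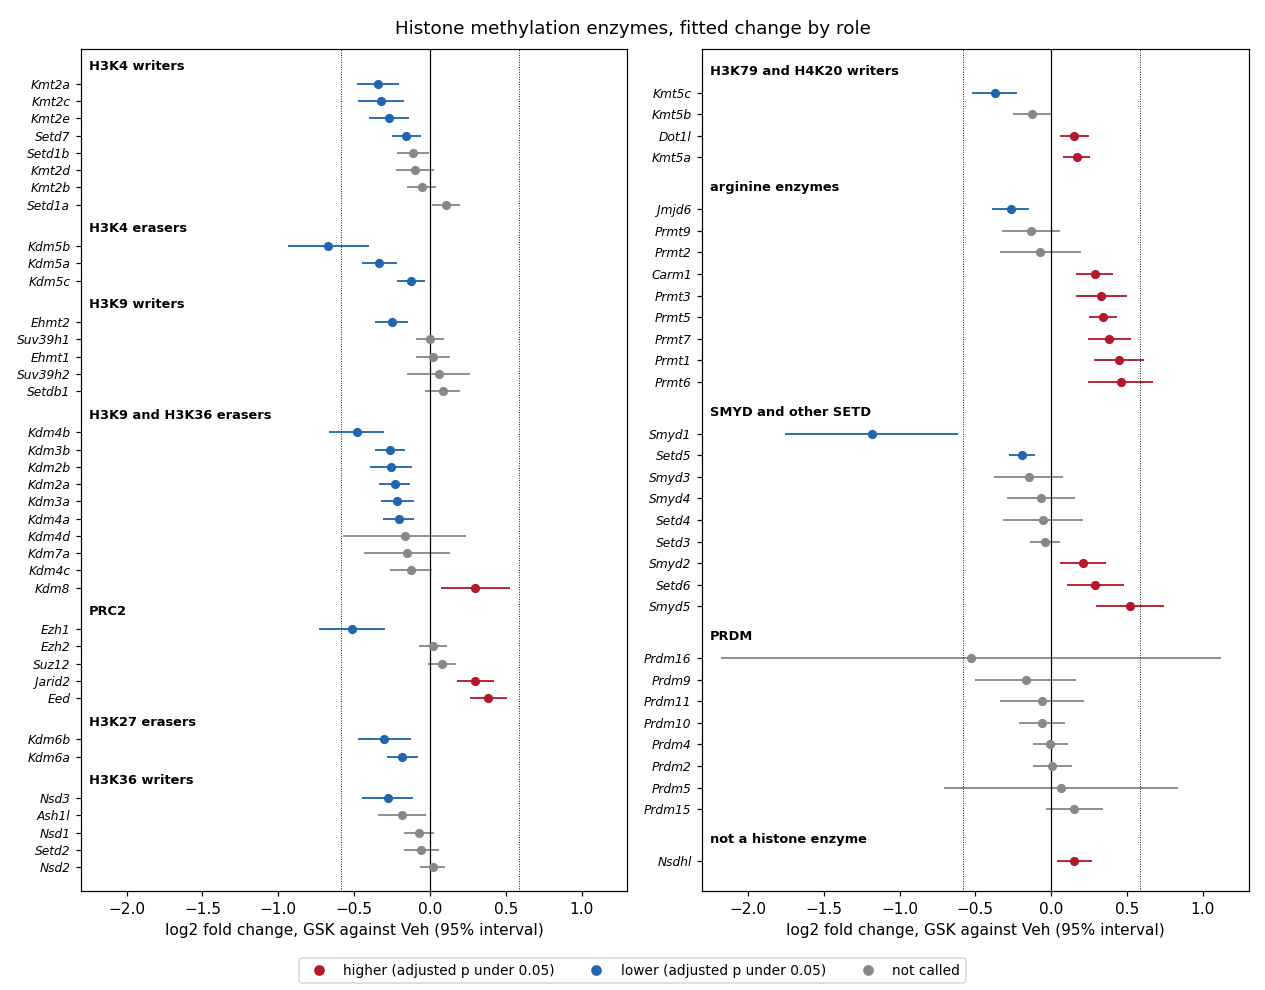
Fitted log2 fold change of GSK over Veh (horizontal axis) for the 69 tested genes, grouped by role, with 95% intervals as bars; red genes were higher, blue genes lower and grey genes not called, and dotted lines mark a 1.5-fold change. Blue points make up most of the eraser groups and red points most of the arginine group, and no red point lies beyond the dotted line.

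The groups of enzymes differed in the direction of their calls. Among the 17 JmjC demethylases (the Kdm genes and Uty), 15 were tested, 11 fell, 1 rose and 3 were not called, with a median log2 fold change of -0.22. That is 80.0% called, against 32.1% of all tested genes (16.6% higher and 15.5% lower). Among the 8 protein arginine methyltransferases (the Prmt genes and Carm1), 6 rose and 2 were not called, with a median of 0.34. That is 75.0% called. None of these 8 fell in edgeR, with 0 also at an unadjusted p under 0.05 and 0 in DESeq2. The 27 tested genes grouped as lysine methyltransferases of H3 and H4 or as PRC2 subunits were mixed, with 4 higher, 8 lower and 15 not called. That is 44.4% called. None of the 8 tested PRDM genes was called by edgeR or by DESeq2, and 0 had an unadjusted p under 0.05 in edgeR.

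The levels were also summed within these groups. The sums hold the same genes in the same 6 samples, so they restate the calls and are no separate evidence. The JmjC demethylases summed to 1631, 1557 and 1605 CPM in the Veh samples and to 1387, 1390 and 1291 CPM in the GSK samples. The arginine methyltransferases summed to 528, 550 and 515 CPM in Veh and to 673, 634 and 707 CPM in GSK. In both groups all GSK samples stood clear of all Veh samples, in opposite directions. Of all single tested genes, 46.7% showed no overlap either. The 8 genes grouped as H3K4 writers summed to 1551, 1471 and 1507 CPM in Veh and 1309, 1416 and 1257 CPM in GSK, again without overlap. The 5 PRC2 subunits summed to 681, 681 and 702 CPM in Veh and 726, 704 and 744 CPM in GSK, where the lowest GSK sample barely cleared the highest Veh sample.

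**Figure D2:**
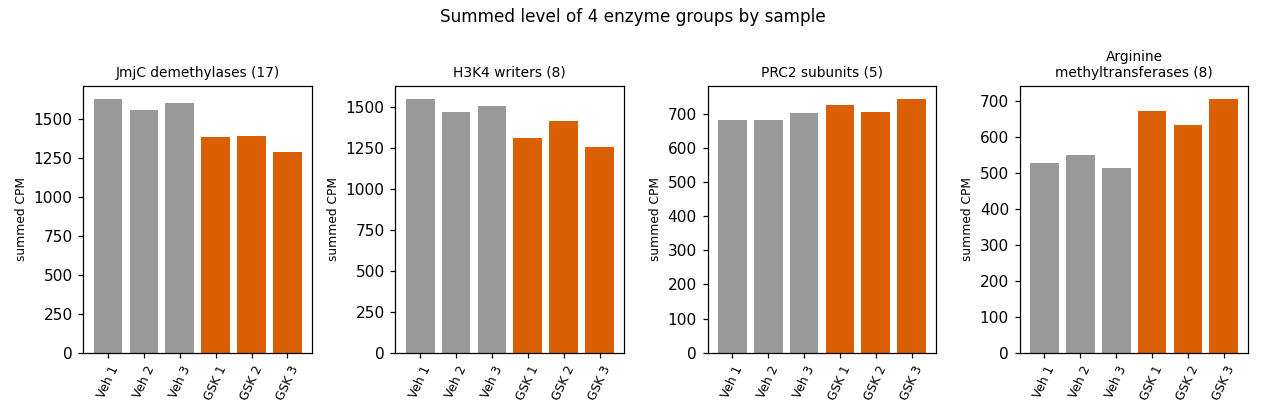
Summed CPM (vertical axis, from 0) of 4 enzyme groups in each of the 6 samples, with Veh in grey and GSK in orange. The JmjC demethylases stand at 1557 or more in every Veh sample and at 1390 or less in every GSK sample, and the arginine methyltransferases stand at 550 or less in Veh and at 634 or more in GSK.

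The 250 bases before the start of 5 members are shown, 3 that rose (Prmt1, Prmt5 and Eed) and 2 that fell (Kdm5b and Ezh1), to let the promoters of genes that moved together be compared. They are from RefSeq on the build GRCm38.p6 and are written 5′ to 3′ in the direction of the gene. Capitals mark exact matches, on either strand, to the E-box CACGTG, the GC box GGGCGG, the ETS core CCGGAA or the CCAAT box CCAAT.
Prmt1 chr7:44986421-44986670 minus strand: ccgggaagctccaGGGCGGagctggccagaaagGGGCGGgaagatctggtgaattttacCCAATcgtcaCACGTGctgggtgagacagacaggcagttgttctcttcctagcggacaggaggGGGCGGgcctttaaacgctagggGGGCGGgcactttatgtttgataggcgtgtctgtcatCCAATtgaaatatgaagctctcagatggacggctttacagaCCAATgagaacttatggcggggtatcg
Prmt5 chr14:54517471-54517720 minus strand: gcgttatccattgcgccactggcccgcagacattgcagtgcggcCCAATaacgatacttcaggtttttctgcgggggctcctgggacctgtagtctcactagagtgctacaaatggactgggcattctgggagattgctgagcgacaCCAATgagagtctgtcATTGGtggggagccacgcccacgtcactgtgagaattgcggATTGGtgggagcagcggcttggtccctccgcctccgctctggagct
Eed chr7:89980977-89981226 minus strand: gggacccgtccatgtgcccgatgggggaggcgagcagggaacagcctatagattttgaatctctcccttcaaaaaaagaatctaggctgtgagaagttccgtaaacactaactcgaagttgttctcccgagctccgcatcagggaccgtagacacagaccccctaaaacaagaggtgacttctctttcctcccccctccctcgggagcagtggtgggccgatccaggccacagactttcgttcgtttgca
Kdm5b chr1:134559928-134560177 plus strand: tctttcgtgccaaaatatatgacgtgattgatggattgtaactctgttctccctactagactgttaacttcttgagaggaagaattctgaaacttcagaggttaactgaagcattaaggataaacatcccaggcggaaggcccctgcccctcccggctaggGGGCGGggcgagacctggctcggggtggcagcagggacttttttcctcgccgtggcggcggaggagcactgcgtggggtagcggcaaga
Ezh1 chr11:101226464-101226713 minus strand: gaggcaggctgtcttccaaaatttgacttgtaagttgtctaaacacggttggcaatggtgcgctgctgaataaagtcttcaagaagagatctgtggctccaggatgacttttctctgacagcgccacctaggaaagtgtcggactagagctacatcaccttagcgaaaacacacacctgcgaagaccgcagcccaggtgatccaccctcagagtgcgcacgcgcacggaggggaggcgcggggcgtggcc

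Prmt1 held 1 E-box, 4 GC boxes and 3 CCAAT boxes, and Prmt5 held 4 CCAAT boxes. Kdm5b held 1 GC box, and neither Eed nor Ezh1 held any of the 4 motifs in this window. Windows were found for 57 members, 14 of those that rose and 15 of those that fell. A member counted if any of its windows held the motif, whereas the percentages are shares of single windows among all 32851. These measures are unlike, so enrichment cannot be read from them. The GC box stood in 11 of the 14 and 7 of the 15, against 32.7% of 32851 windows in RefSeq. The CCAAT box stood in 8 of the 14 and 7 of the 15, against 33.8% of windows. The ETS core stood in 4 of the 14 and 4 of the 15, against 12.0%. The E-box stood in 2 of the 14 and 2 of the 15, against 6.02%. None of the 4 motifs contains another.

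The erasers of H3K4 methylation, which share this mark with the drug's target, all fell where they were tested. Kdm5b (chr1:134560178-134632878), a demethylase of trimethylated H3K4, was measured at 64.7, 57.2 and 63.1 CPM in Veh and at 40.1, 44.7 and 31.3 CPM in GSK. The highest GSK sample lay well under the lowest Veh sample, and GSK replicate 3 was the lowest of all. It fell by 37.2%, a log2 fold change of -0.67 ± 0.12 (edgeR adjusted p = 0.0033). Without GSK replicate 3 it was -0.54, under 1.5-fold, with an edgeR adjusted p of 0.00013.

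Kdm5a, a close paralog of Kdm5b, was measured at 163, 163 and 159 CPM in Veh and at 134, 134 and 117 CPM in GSK. The Veh samples were nearly level and all GSK samples lay under them, with a log2 fold change of -0.34 ± 0.054 (edgeR adjusted p = 0.0006). The X-linked Kdm5c was measured at 234, 243 and 235 CPM in Veh and at 226, 215 and 211 CPM in GSK. The groups did not overlap, but the difference was only -0.13 ± 0.043 on the log2 scale (edgeR adjusted p = 0.04). That call was lost in 5 of the 6 fits that left out 1 sample, with edgeR adjusted p of 0.073, 0.14 and 0.085 without Veh replicates 1, 2 and 3, and of 0.059 and 0.11 without GSK replicates 2 and 3. With a replicate block its adjusted p was 0.078. Kdm5d, the Y-linked copy, had 3, 1 and 1 counts in Veh and 1, 1 and 0 in GSK, and Uty, the Y-linked copy of Kdm6a, had 0, 0 and 1 in Veh and 0, 1 and 2 in GSK, so neither was tested. The Y-linked Ddx3y and Eif2s3y also stood at 0.313 CPM or less in every sample, and the sex of the mice was not tested.

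Of the 8 genes grouped as writers of H3K4 methylation, 4 fell, with a median log2 fold change of -0.13. None was called higher in the main edgeR fit or in DESeq2, and 1 (Setd1a) was higher at an unadjusted p under 0.05 in edgeR. Kmt2a (MLL1), which keeps developmental genes active, was measured at 344, 318 and 326 CPM in Veh and 247, 289 and 242 CPM in GSK. All GSK samples were lower, and GSK replicate 2 came nearest to the Veh samples, with a log2 fold change of -0.34 ± 0.063 (edgeR adjusted p = 0.0021). Kmt2c (MLL3), an enhancer methyltransferase, was measured at 138, 120 and 131 CPM in Veh and 102, 114 and 94.7 CPM in GSK, and fell by 0.32 ± 0.069 on the log2 scale (edgeR adjusted p = 0.0047). Kmt2e, a more distant relative grouped here by family rather than by shown activity, was measured at 291, 276 and 287 CPM in Veh and 229, 262 and 217 CPM in GSK. It fell by 0.27 ± 0.061 on the log2 scale, with an edgeR adjusted p of 0.006 and no overlap between the groups, and 9.31% of its exon bases overlap those of Srpk2 on the other strand.

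Setd7, which also methylates many proteins other than histones, was the fourth gene of this group that fell, by 0.16 ± 0.045 on the log2 scale (edgeR adjusted p = 0.017). Its call was lost without Veh replicates 2 and 3 and without GSK replicate 3, with edgeR adjusted p of 0.066, 0.056 and 0.056. The other H3K4 enzymes were not called. Kmt2d (MLL4), the partner of Kmt2c at enhancers, stood at 268 ± 14.5 CPM in Veh against 250 ± 19.0 CPM in GSK (SD, n = 3), a log2 fold change of -0.10 with a 95% interval from -0.22 to 0.03. Kmt2b (MLL2) had a log2 fold change of -0.06 and an interval from -0.15 to 0.04. Setd1b had a log2 fold change of -0.11 (edgeR adjusted p = 0.1), and Setd1a, its paralog, had one of 0.10 (edgeR adjusted p = 0.084). Other annotated genes together cover 52.3% of the exon bases of Setd1a, so its counts are uncertain.

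The erasers of H3K9 and H3K36 methylation were 10 genes, of which 6 fell, 1 rose and 3 were not called. This is 70.0% called, against 32.1% of all tested genes. Kdm4b (chr17:56325970-56403774), which acts on trimethylated H3K9 and H3K36, was measured at 78.4, 65.9 and 75.9 CPM in Veh and at 55.1, 55.8 and 46.6 CPM in GSK. Veh replicate 2 was the lowest of its group and still lay above every GSK sample. Its level fell by 28.5%, a log2 fold change of -0.48 ± 0.082 (edgeR adjusted p = 0.0012). Its paralog Kdm4a was measured at 120, 115 and 125 CPM in Veh and 106, 105 and 101 CPM in GSK, and fell by 0.21 ± 0.048 on the log2 scale (edgeR adjusted p = 0.0057). Kdm4c, the other broadly acting member of that family, had a log2 fold change of -0.12 with an interval from -0.26 to 0.02.

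Kdm3a and Kdm3b, which remove mono- and dimethyl groups from H3K9, fell together. Kdm3a was measured at 261, 229 and 254 CPM in Veh and 214, 210 and 216 CPM in GSK, with a log2 fold change of -0.22 ± 0.05 (edgeR adjusted p = 0.0058). Kdm3b was measured at 140, 135 and 138 CPM in Veh and 115, 119 and 110 CPM in GSK, with a log2 fold change of -0.26 ± 0.046 (edgeR adjusted p = 0.00095). In neither gene did the groups overlap, although 24.6% of the exon bases of Kdm3b are shared with an antisense RNA. Kdm2a and Kdm2b, demethylases of H3K36 with a CpG-binding domain, fell by 0.23 ± 0.047 and 0.26 ± 0.065 on the log2 scale (edgeR adjusted p = 0.0023 and 0.0094). Kdm7a and Kdm4d were not called.

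Kdm8 (JMJD5), grouped here by its symbol rather than by settled activity, was the only gene of the JmjC demethylase group called higher by edgeR. It was measured at 12.6, 15.6 and 13.2 CPM in Veh and at 18.1, 15.7 and 17.2 CPM in GSK. The lowest GSK sample lay just above the highest Veh sample, both being replicate 2. The log2 fold change was 0.30 ± 0.1 (edgeR adjusted p = 0.043). This call did not hold without Veh replicates 1 and 3 or without GSK replicates 1 and 3 (edgeR adjusted p = 0.16, 0.13, 0.16 and 0.092), in DESeq2 (adjusted p = 0.087) or with the replicate block (0.076).

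Of the erasers of H3K27 methylation, Kdm6b (JMJD3), an inducible gene, was measured at 43.6, 36.7 and 45.2 CPM in Veh and 35.3, 31.9 and 34.6 CPM in GSK. The groups did not overlap and the log2 fold change was -0.30 ± 0.082 (edgeR adjusted p = 0.014). Without Veh replicate 1 or 3 the call was lost, with edgeR adjusted p of 0.057 and 0.073. Kdm6a (UTX), which works with MLL3 and MLL4, was measured at 107, 111 and 108 CPM in Veh and 99.5, 95.7 and 91.8 CPM in GSK, and fell by 0.18 ± 0.048 on the log2 scale (edgeR adjusted p = 0.011). A 4.11% share of the exon bases of Kdm6b overlaps its antisense gene Kdm6bos.

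Among the 5 PRC2 subunits, 60.0% were called, against 32.1% of all tested genes. The subunits of PRC2, which writes H3K27 methylation, moved in both directions, with 2 of 5 higher and 1 lower. Ezh1 (chr11:101191115-101226463), 1 of its 2 alternative catalytic subunits, was measured at 77.2, 67.6 and 78.8 CPM in Veh and at 50.1, 60.2 and 46.2 CPM in GSK. All GSK samples were lower, and GSK replicate 2 again lay nearest to Veh. Its level fell by 30.0%, a log2 fold change of -0.51 ± 0.096 (edgeR adjusted p = 0.0032). Ezh2, the catalytic subunit of dividing cells, was measured at 202, 200 and 206 CPM in Veh and 208, 199 and 209 CPM in GSK. The groups overlapped, and the log2 fold change of 0.02 had a 95% interval from -0.07 to 0.11. Per kilobase of exon, Ezh1 made up 24.8% ± 1.33 of the sum of Ezh1 and Ezh2 in Veh and 18.6% ± 2.52 in GSK (SD, n = 3), with every GSK sample under every Veh sample and an exact permutation p of 0.1 (two-sided), the smallest this design can give. This share restates the call of Ezh1 in the same samples and is no separate evidence.

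Eed (chr7:89954654-89980976), the subunit that reads H3K27 methylation and stimulates the enzyme, was measured at 75.6, 81.4 and 80.5 CPM in Veh and at 102, 98.0 and 111 CPM in GSK. Every GSK sample was well above every Veh sample, and the log2 fold change was 0.39 ± 0.056, a rise of 30.6% (edgeR adjusted p = 0.0003). Jarid2, an accessory subunit that helps PRC2 find its sites, was measured at 80.7, 78.7 and 77.3 CPM in Veh and 98.1, 89.6 and 103 CPM in GSK. It rose by 0.30 ± 0.057 on the log2 scale without overlap (edgeR adjusted p = 0.0018). Suz12, a scaffold subunit, had a log2 fold change of 0.08 with an interval from -0.01 to 0.17. Of 7 further PRC2 subunits, 28.6% were called, under the 32.1% of all tested genes. Among these subunits 2 rose, and none fell in edgeR (0 at an unadjusted p under 0.05) or in DESeq2. They were Epop, which links PRC2 to elongin (28.5 ± 1.66 CPM in Veh against 41.2 ± 1.58 CPM in GSK, SD, n = 3, edgeR adjusted p = 0.00014), and the histone-binding Rbbp7 (log2 fold change 0.28, edgeR adjusted p = 0.00093).

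**Figure D3:**
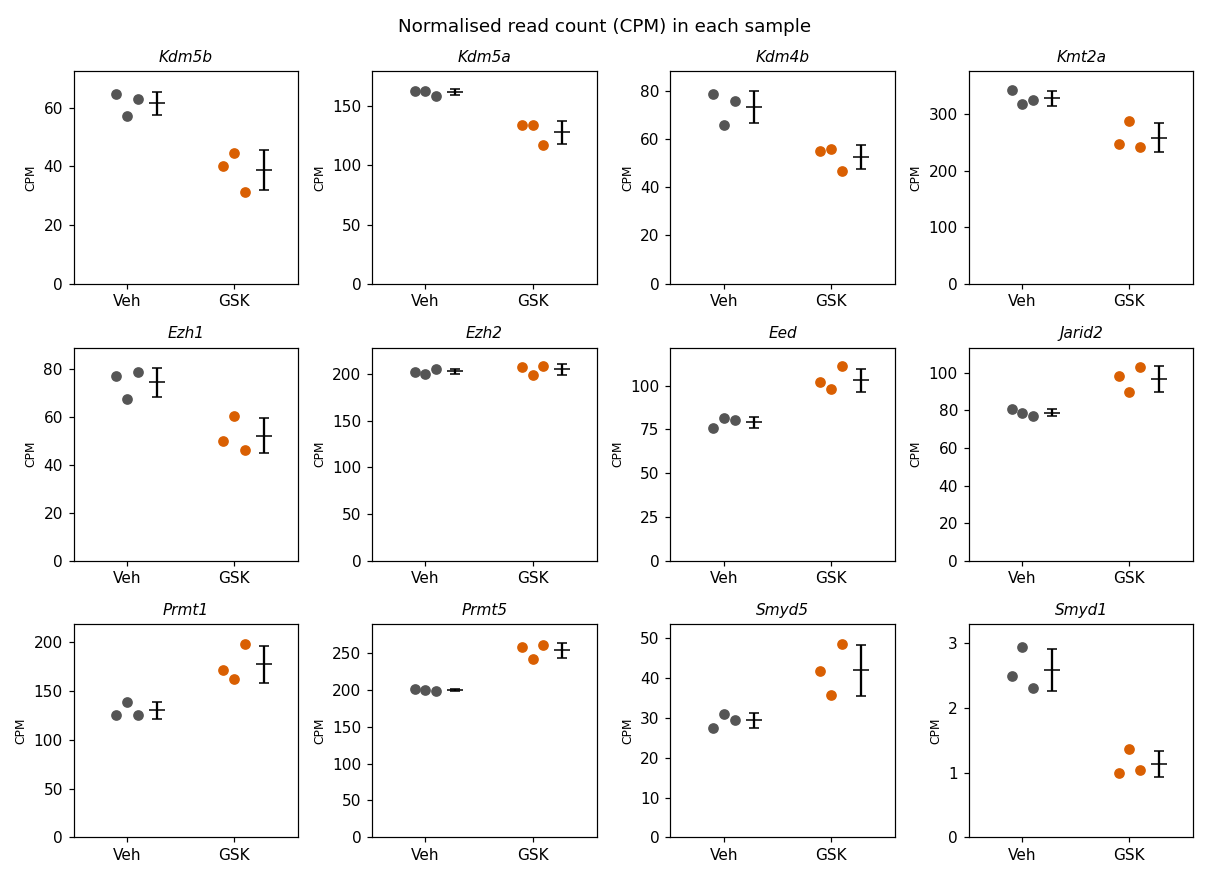
CPM of 12 members in each sample (points; vertical axes start at 0), with Veh in grey and GSK in orange and the mean ± SD of 3 samples beside them. The groups do not overlap in any panel except that of Ezh2, where both lie near 200 CPM.

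The writers of H3K9 methylation were mostly uncalled, with 1 of 5 lower and a median log2 fold change of 0.02. This is 20.0% called, under the 32.1% of all tested genes. Ehmt2 (G9a), which writes mono- and dimethylated H3K9, was measured at 202, 197 and 218 CPM in Veh and 175, 176 and 165 CPM in GSK. All GSK samples were lower, with a log2 fold change of -0.25 ± 0.049 (edgeR adjusted p = 0.0019). Its partner Ehmt1 had a log2 fold change of 0.02 and an interval from -0.10 to 0.13. Suv39h1 stood at 133 ± 0.784 CPM in Veh against 133 ± 3.23 CPM in GSK (SD, n = 3), with a log2 fold change of -0.00 and a 95% interval from -0.09 to 0.09, and 14.6% of its exon bases overlap an antisense gene. Setdb1, which silences retroelements, had a log2 fold change of 0.09 with an interval from -0.03 to 0.20.

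Among the writers of H3K36 methylation, Nsd3 was called and 4 were not. This is 20.0% called, under the 32.1% of all tested genes. Nsd3 was measured at 278, 258 and 259 CPM in Veh and 219, 243 and 192 CPM in GSK. GSK replicates 2 and 3 lay far apart, yet both were lower than all Veh samples, and the log2 fold change was -0.28 ± 0.074 (edgeR adjusted p = 0.017). The call was lost without Veh replicate 1 (adjusted p = 0.065). Nsd2, the member of that family with the highest level, had a log2 fold change of 0.02 and an interval from -0.07 to 0.10. Setd2, the writer of trimethylated H3K36, had a log2 fold change of -0.06 and an interval from -0.17 to 0.06.

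The writers of H4K20 methylation moved in both directions. Kmt5c, which makes trimethylated H4K20 in silent chromatin, was measured at 46.6, 46.7 and 50.2 CPM in Veh and 36.1, 39.9 and 34.8 CPM in GSK. It fell by 22.8%, a log2 fold change of -0.37 ± 0.068 without overlap between the groups (edgeR adjusted p = 0.0014). Kmt5a, which makes the monomethylated form needed in mitosis, was measured at 151, 155 and 153 CPM in Veh and 169, 170 and 177 CPM in GSK. It rose by 0.17 ± 0.042 on the log2 scale, also without overlap (edgeR adjusted p = 0.0089). Kmt5b had a log2 fold change of -0.13 and was not called (edgeR adjusted p = 0.11). Dot1l, the H3K79 methyltransferase, rose by 0.15 ± 0.044 on the log2 scale (edgeR adjusted p = 0.018), but not without Veh replicates 1 or 3 or GSK replicate 1 (0.065, 0.056 and 0.085).

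The 6 arginine methyltransferases that rose include the 2 most abundant per kilobase of exon. Prmt1 (chr7:44976755-44986420), which makes most asymmetric dimethylarginine, was measured at 125, 139 and 125 CPM in Veh and at 171, 162 and 198 CPM in GSK. The lowest GSK sample lay above the highest Veh sample, and the log2 fold change was 0.45 ± 0.074, a rise of 36.3% (edgeR adjusted p = 0.0014). Prmt5 (chr14:54507182-54517470), the main source of symmetric dimethylarginine, was measured at 201, 200 and 198 CPM in Veh and at 258, 241 and 261 CPM in GSK. The Veh samples were almost identical and all GSK samples stood clear of them, with a log2 fold change of 0.34 ± 0.043 (edgeR adjusted p = 0.00011).

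Of the less abundant arginine methyltransferases, 4 were called higher and Prmt2 and Prmt9 were not called. Prmt6, which methylates arginine 2 of H3, was measured at 14.3, 15.1 and 12.6 CPM in Veh and 19.9, 17.5 and 20.2 CPM in GSK. Its log2 fold change of 0.46 ± 0.099 came without overlap (edgeR adjusted p = 0.0038), and 23.5% of its exon bases are shared with an antisense gene. Prmt7, a monomethylating enzyme, was measured at 37.1, 35.2 and 34.0 CPM in Veh and 45.5, 43.9 and 49.2 CPM in GSK, a log2 fold change of 0.38 ± 0.067 (edgeR adjusted p = 0.00099). Prmt3, which acts on a ribosomal protein, was measured at 34.3, 38.2 and 31.7 CPM in Veh and 41.9, 42.1 and 47.0 CPM in GSK, a log2 fold change of 0.33 ± 0.079 (edgeR adjusted p = 0.0065). Carm1, a coactivator that methylates H3, was measured at 77.7, 83.6 and 78.8 CPM in Veh and 101, 90.8 and 101 CPM in GSK, a log2 fold change of 0.29 ± 0.056 (edgeR adjusted p = 0.002). In none of these genes did the groups overlap, and 21.1% of the exon bases of Carm1 overlap its neighbour Yipf2. Prmt2 and Prmt9 had log2 fold changes of -0.07 and -0.13, with overlapping groups. Jmjd6, a JmjC protein with debated arginine demethylase activity, was measured at 82.1, 76.3 and 83.4 CPM in Veh and 67.1, 63.5 and 70.3 CPM in GSK. It fell by 0.27 ± 0.057 on the log2 scale (edgeR adjusted p = 0.0034) without overlap.

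Per kilobase of exon, Prmt5 and Suz12 had the highest levels. The length used joins all annotated exons of a gene, which can exceed its expressed transcript, so comparisons between genes are approximate. Prmt5 stood at 50.5 CPM per kilobase in Veh and 64.0 in GSK, Suz12 at 51.1 and 54.0, and Prmt1 at 37.8 and 51.6, so Prmt5 ranked first in GSK but not in Veh. Among the demethylases, Kdm5c was the most abundant by this measure, at 33.4 CPM per kilobase in Veh and 30.6 in GSK. Ezh2 stood at 30.3 and 30.8, while Kdm5a stood at 11.4 and 9.05.

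The SMYD genes, which methylate histones and other proteins, held the largest change in each direction among all tested members. Smyd1, best known from heart and skeletal muscle, was measured at 2.5, 2.95 and 2.31 CPM in Veh and at 0.997, 1.37 and 1.04 CPM in GSK. These are 46, 55 and 44 counts against 19, 27 and 20, so the level was low in every sample although the groups stood apart. It fell by 55.9%, a log2 fold change of -1.18 ± 0.26 (edgeR adjusted p = 0.0046), with a wide 95% interval from -1.75 to -0.61. In GENCODE M21, Smyd1 begins on the minus strand of chromosome 6, 554 bases from the start of the T-cell gene Cd8b1 on the plus strand. In RefSeq, however, Smyd1 spans only chr6:71213940-71262281, far from the Cd8b1 start at base 71322788 in GENCODE M21. Which of these spans was counted is not known. Cd8b1 itself stood at 406 ± 12.0 CPM in Veh against 375 ± 20.7 CPM in GSK (SD, n = 3), a log2 fold change of -0.11 with an edgeR adjusted p of 0.072, and its part in the counts of Smyd1 was not tested.

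Smyd5 was measured at 27.4, 31.1 and 29.6 CPM in Veh and at 41.8, 35.8 and 48.5 CPM in GSK. The GSK samples were spread widely but all were higher than Veh, and the log2 fold change was 0.52 ± 0.1, a rise of 43.1% (edgeR adjusted p = 0.003). Without GSK replicate 2 it was 0.62, which is over 1.5-fold. Setd6, known to methylate the NF-kappaB subunit RelA, was measured at 15.9, 17.1 and 17.9 CPM in Veh and 20.4, 19.6 and 22.3 CPM in GSK, a log2 fold change of 0.29 ± 0.087 (edgeR adjusted p = 0.021). That call was lost without Veh replicate 1 and without GSK replicates 1 and 3 (edgeR adjusted p = 0.087, 0.058 and 0.089) and in DESeq2 (0.054). Setd5 fell by 0.19 ± 0.04 on the log2 scale, from 252, 260 and 253 CPM in Veh to 225, 225 and 220 CPM in GSK, with no overlap (edgeR adjusted p = 0.0028). Smyd2 had a log2 fold change of 0.21 (edgeR adjusted p = 0.038), and 30.0% of its exon bases overlap an antisense gene. It was not called without Veh replicates 1 and 3 or GSK replicates 1 and 2 (edgeR adjusted p = 0.13, 0.15, 0.12 and 0.056) or in DESeq2 (0.062).

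The PRDM genes, of which only some have shown methyltransferase activity, were the least affected group by count. Their fitted log2 fold changes ran from -0.53 for Prdm16, whose 95% interval from -2.18 to 1.12 is wide, to 0.15 for Prdm15. Prdm2, the most abundant, was measured at 127, 128 and 117 CPM in Veh and 124, 134 and 115 CPM in GSK, with a log2 fold change of 0.01 and an interval from -0.12 to 0.13. The groups overlapped in all 8. Prdm6, Prdm8 and Setdb2 were at or under 0.483 CPM in every sample and were not tested. Nsdhl, which is no histone enzyme, stood at 64.3 ± 2.26 CPM in Veh against 71.5 ± 2.27 CPM in GSK (SD, n = 3), a log2 fold change of 0.15 (edgeR adjusted p = 0.041). With 1 sample left out its call held only without GSK replicate 2, and the adjusted p was otherwise between 0.052 and 0.15.

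Long genes were lower in GSK across the data, and the members followed this more steeply. Spearman's rho between exon length and log2 fold change was -0.10 across 11427 tested genes and -0.40 across the 69 tested members. These are descriptions across genes of the same 6 libraries, and genes are not independent replicates. Among genes with 10000 or more exon bases, 11 of 21 members fell, and none rose in edgeR (0 at an unadjusted p under 0.05) or in DESeq2. Of all such genes, 24.5% fell and 12.2% rose. The median log2 fold change there was -0.19 for the members and -0.06 for all genes. The members that rose had a median of 4197 exon bases and those that fell had 9413. With the trend over length taken out of the model, an alternative chosen after seeing the data, all 15 members called higher and 18 of 22 called lower were still called. Nsd2 and Setd1a were then called higher too, making 17, with log2 fold changes of 0.13 and 0.14 (edgeR adjusted p = 0.033 and 0.026). With a replicate block added these 2 were not called (edgeR adjusted p = 0.056 and 0.058). The 4 calls lost were Kdm5c, Nsd3, Setd5 and Setd7, with edgeR adjusted p of 0.14, 0.059, 0.18 and 0.14, and Kdm5b came to -0.56, under 1.5-fold. With the offset and a replicate block together, the lower calls of Kmt2c, Kdm2a, Kdm2b and Kdm6a were lost as well (edgeR adjusted p = 0.054, 0.054, 0.054 and 0.078).

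**Figure D4:**
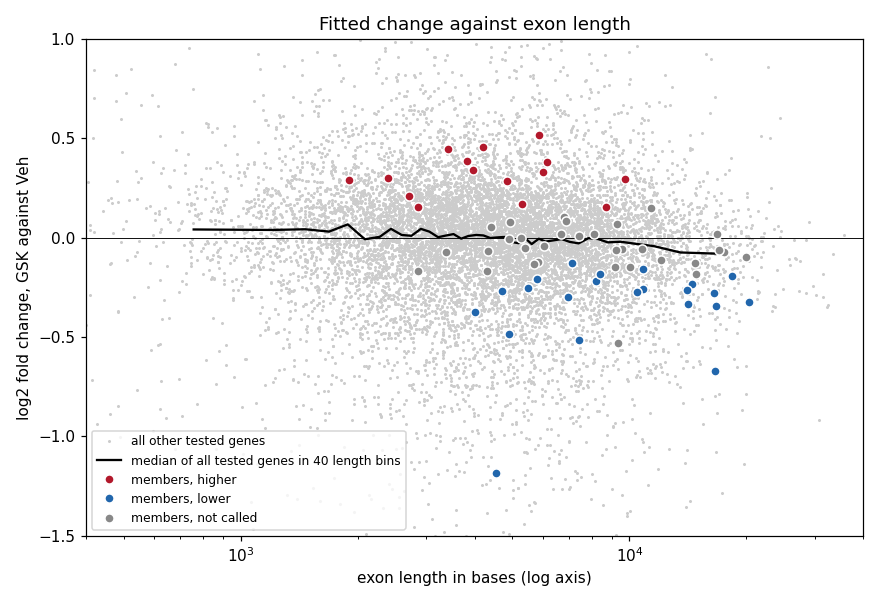
Log2 fold change of GSK over Veh (vertical axis, limited to the range shown) against exon length (log axis) for all tested genes in pale grey, with the median of all genes in 40 bins of length as a line. Members that rose (red) lie under 10000 bases, whereas members that fell (blue) reach past that length and lie below the line, and uncalled members are dark grey.

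GSK replicate 2 lay nearest to Veh, and GSK replicate 3 farthest, in most of these genes. Of the 15 members that rose, GSK replicate 2 was nearest to the mean of Veh in 12, and of the 22 that fell it was nearest in 15. GSK replicate 3 was farthest in 12 and 18 of them. Among the 3760 genes called in the whole table, replicate 2 was nearest in 62.5% and replicate 3 was farthest in 63.9%. How the spread among the GSK cultures arose was not tested.

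Proteins that work with these enzymes were counted from lists of their own. On a list of 15 subunits and associated proteins of the MLL and SET1 complexes, not all shared between them, 3 rose (Wdr5, Dpy30 and Hcfc1). A further 4 fell (Men1, Hcfc2, Bod1l and Kansl1) and 8 were not called. This is 46.7% called, against 32.1% of all tested genes. Wdr5, a core subunit needed for H3K4 methylation, stood at 86.8 ± 1.75 CPM in Veh against 103 ± 6.11 CPM in GSK (SD, n = 3), a log2 fold change of 0.25 (edgeR adjusted p = 0.003). Men1, which tethers MLL1 and MLL2, had a log2 fold change of -0.20 (edgeR adjusted p = 0.011). Of 17 proliferation genes, which rise and fall with the share of dividing cells, 3 rose (Mcm2, Mcm3 and Rrm2) and 1 fell (Mki67, log2 fold change -0.17, edgeR adjusted p = 0.0077). This is 23.5% called, under the share of all tested genes. The calls of Dpy30, Hcfc1, Hcfc2, Kansl1 and Mcm3 were lost with 1 sample left out, at edgeR adjusted p of up to 0.089, 0.051, 0.12, 0.11 and 0.1. Over the 5 lists of partners, other JmjC proteins, readers and proliferation genes, 9 of 59 tested genes rose and 9 fell. This is 30.5% called, near the 32.1% of all tested genes. The counts were 12 higher and 5 lower with the trend over length removed.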

How the data were processed

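Polyadenylated RNA of 6 cultures was sequenced by the authors as stranded paired-end libraries. Per the labels, Trimmomatic, HISAT2 (2.1.0), HTSeq (0.11.2), Cufflinks (2.2.1) and DESeq2 (1.22.2) were used with GRCm38. The deposited values used here are whole read counts per gene, not normalized; the strand setting and the annotation release of the counting were not given in the sources used here, so overlapping genes are uncertain.

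Groups were taken from the sample titles and compared in R (4.3.3) with edgeR (4.0.16), using filterByExpr, TMM scaling and the robust quasi-likelihood test with Benjamini-Hochberg adjustment over 11698 genes. Calls used an adjusted p under 0.05, and the second rule a fold over 1.5. Standard errors came from the test statistic. The members and lists were chosen with earlier results of these data known. Genes named in full were those past both rules and the 10 other called members with the largest change in each direction. The most abundant of each role and a list of core enzymes were also named in full. Further members, Cd8b1, Ddx3y, Eif2s3y and subunits were named after their values were seen. Exon lengths and overlaps came from GENCODE M21 (all 74 members matched) and coordinates from RefSeq on GRCm38.p6. Alternatives were DESeq2 (1.42.0), RLE scaling, no filter, a CPM over 1 in 3 samples, a replicate block, a fold tested against 1.5, leaving out each sample and, chosen after seeing the data, an offset for exon length with and without the block. Total counts of 18288447 to 19846720 per sample limit the precision of the lowest genes.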

Additional observations from a re-analysis of the deposited data

How the results depend on the processing

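No called member changed direction under any alternative. Of the 15 members called higher and 22 called lower, DESeq2 kept 11 and 22, RLE size factors, no filter and a CPM over 1 in 3 samples each kept 15 and 22, and the length offset kept 15 and 18. The length offset also called Nsd2 and Setd1a higher. Leaving out 1 sample at a time gave 10 to 14 members higher and 19 to 23 lower, 0 to 1 higher and 1 to 3 lower past 1.5-fold, 1288 to 2090 genes higher over the table, and 6 to 15 higher and 4 to 9 lower on the companion lists. The higher count of 1288 came without GSK replicate 1, and the companion count of 15 without GSK replicate 2. Past 1.5-fold, 1 member was higher without GSK replicate 2 (Smyd5), 3 were lower without it (Ezh1 joined) and 1 was lower without GSK replicate 3 (Smyd1). Tested against a fold of 1.5, 69 genes were higher and 65 lower over the table, and of the members 0 were lower. With the length offset, 1 member was lower past 1.5-fold, and 5 companion genes were lower.

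Both groups carry replicate numbers 1 to 3, and deviations of same-numbered samples correlated at -0.0515, -0.0814 and 0.164. With 3 samples per group these values cannot show whether cultures were paired. As the sources used here give no pairing, the main fit did not use the numbers as pairs. With the replicate block, 13 members were higher (Kdm8 and Nsdhl lost their calls, at edgeR adjusted p of 0.076 and 0.061) and 22 lower, and 1703 and 1600 genes over the table. The 22 were not the same genes, as 21 were kept, Kdm5c was lost (edgeR adjusted p = 0.078) and Ash1l joined (log2 fold change -0.19, edgeR adjusted p = 0.039). With the block and the length offset together, 14 members were lower, 1 of them past 1.5-fold. The 8 lower calls lost were those of Kdm5c, Nsd3, Setd5 and Setd7, lost under the offset alone, and of Kmt2c, Kdm2a, Kdm2b and Kdm6a (edgeR adjusted p = 0.054, 0.054, 0.054 and 0.078).

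Uncalled members with fitted changes near 0 changed sign. With 1 sample left out, Nsd2 lay between -0.000 and 0.035 (lowest without Veh replicate 1), Prdm2 between -0.049 and 0.058 (below 0 without Veh replicate 3 and without GSK replicate 2) and Suv39h1 between -0.021 and 0.015 (above 0 without Veh replicate 3 and without GSK replicate 1). With the length offset, alone and with the block, Kmt2b came to 0.001 and 0.001, Kmt2d to 0.028 and 0.027, Setd2 to 0.009 and 0.009, and Suv39h1 to 0.037 and 0.037. Suv39h1 also came to 0.000 in DESeq2 and 0.000 with no filter. The causes were not tested. The 5 members at or under 0.483 CPM in every sample were removed by the filter on low counts and not tested.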

Other observations

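Readers of histone methylation and other JmjC proteins were measured as companions of the enzymes. Of 8 chromodomain proteins of PRC1 and HP1, none rose in edgeR (0 at an unadjusted p under 0.05) or in DESeq2, and 2 fell in edgeR. With 25.0% called, the list lay under the 32.1% of all tested genes. Cbx7, which binds H3K27 methylation, stood at 57.3 ± 2.95 CPM in Veh against 45.2 ± 6.04 CPM in GSK (SD, n = 3), a log2 fold change of -0.34 with an edgeR adjusted p of 0.01. Cbx6 had a log2 fold change of -0.15 with an edgeR adjusted p of 0.036, of 0.065 with the replicate block and of up to 0.12 with 1 sample left out, and a DESeq2 adjusted p of 0.085. Of 12 other JmjC proteins, 1 rose, 2 fell and 9 were not called. This list too, at 25.0% called, lay under the 32.1% of all tested genes. Riox1, a nucleolar hydroxylase, rose from 20.4 ± 1.93 to 26.1 ± 1.23 CPM (SD, n = 3, edgeR adjusted p = 0.0066). Its paralog Riox2 fell from 134 ± 5.1 to 118 ± 4.27 CPM (SD, n = 3, edgeR adjusted p = 0.012). The call of Riox2 was lost without Veh replicate 3 (0.064) and without GSK replicate 1 (0.068). Jmjd8 fell by 0.31 on the log2 scale (edgeR adjusted p = 0.034), with an adjusted p of up to 0.18 when 1 sample was left out.

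Within pairs of paralogs the share of the first gene, per kilobase of exon, was also lower in GSK in 3 further pairs, each with an exact permutation p of 0.1 (two-sided), the smallest possible. In each of them the first gene had already been called lower in the same samples. The shares therefore restate those calls and are no separate evidence. Kdm5b was 24.6% ± 1.29 of Kdm5b and Kdm5a in Veh and 20.4% ± 1.82 in GSK (SD, n = 3). Kmt5c was 73.2% ± 0.687 of Kmt5c and Kmt5b in Veh and 69.7% ± 0.353 in GSK. Ehmt2 was 81.9% ± 0.726 of Ehmt2 and Ehmt1 in Veh and 79% ± 0.543 in GSK. For Kdm6b in Kdm6b and Kdm6a the shares overlapped, at 31.7% ± 2.74 and 30.0% ± 1.28 (exact permutation p = 0.4). The share of Prmt1 in Prmt1 and Prmt5 was 42.8% ± 1.51 in Veh and 44.6% ± 1.81 in GSK (SD, n = 3, exact permutation p = 0.3).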
